A study of Oryza sativa with 2 samples.

Results

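Phosphate sensing in rice leaves was examined through 8 genes of 17905 that had a probe set, measured on Affymetrix rice arrays of LRK1 transgenic and control plants. They were 4 genes of SPX proteins (SPX1, SPX2, SPX4 and SPX5), 3 genes of PHR transcription factors (PHR1, PHR2 and PHR3) and the galactolipid synthase gene MGD3. Each was chosen by name and read from a single listed probe set, a group of probes against 1 transcript, with earlier results of these data known. Of the 57258 probe sets other than array controls, the platform's annotation assigns 11 to 1 of these genes alone.

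The arrays were 1 of 9311 plants carrying the transgene (genotype LRK1 transgenic 9311, sample title LRK1 060615 transgenic rice) and 1 of control 9311, an indica rice. Leaves came from untreated plants aged 6 weeks, 10 plants per genotype, kept in a greenhouse at 28 °C with 14 h of light and 10 h of dark. LRK1 encodes a receptor-like kinase with leucine-rich repeats. The labels give neither the promoter of the transgene nor what 060615 stands for. They also do not say how many transformation events the plants represent, or whether the plants were combined before RNA extraction. With 1 array per genotype there is no replicate, no p-value can be given, and array and genotype cannot be told apart. In leaf RNA, fewer cells of a type and less RNA per cell cannot be told apart either.

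Plants adjust their phosphate uptake through a small set of sensors. PHR proteins are MYB transcription factors that switch on genes of phosphate starvation. SPX proteins bind inositol pyrophosphates, which report a sufficient phosphate supply, and in that state hold PHR proteins back. In rice, SPX1 and SPX2 act on PHR2 in the nucleus and SPX4 keeps it in the cytoplasm. SPX1, SPX2 and SPX5 are themselves switched on by phosphate shortage, so their transcripts are commonly read as markers of it, while SPX4 is controlled mainly at the protein level. Under shortage, plants also replace membrane phospholipids with galactolipids, which MGD enzymes make.

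On the array of transgenic leaves, SPX1, SPX2 and SPX5 had signals between 1.84-fold and 1.98-fold lower than on the control array, while SPX4 was 1.56-fold higher on its listed probe set. PHR2 was 1.49-fold higher and PHR1 1.22-fold higher, PHR3 was 1.29-fold lower, and MGD3 had nearly the same signal on both arrays. A gene was called different where both log2 signals reached a floor of 5.40, the median of all probe sets over both arrays, and differed at least 2-fold. All 8 genes reached the floor on both arrays, and 0 of 8 were called higher and 0 of 8 lower. Over the 24426 probe sets at the floor on both arrays, 8.36% were called higher and 9.95% lower, 2042 and 2430 probe sets, a split that became 877 and 3858 after centring on the control RNAs spiked into the samples. At a 1.5-fold rule, 1 member (SPX4) was higher and 3 (SPX1, SPX2 and SPX5) were lower, against 22.1% higher and 19.2% lower over those probe sets. The median log2 ratio, LRK1 transgenic minus control as throughout, was -0.91 over the 4 SPX genes, 0.28 over the 3 PHR genes and -0.19 over all 8 members, beside 0.08 over all probe sets at the floor on both arrays.

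**Figure D1:**
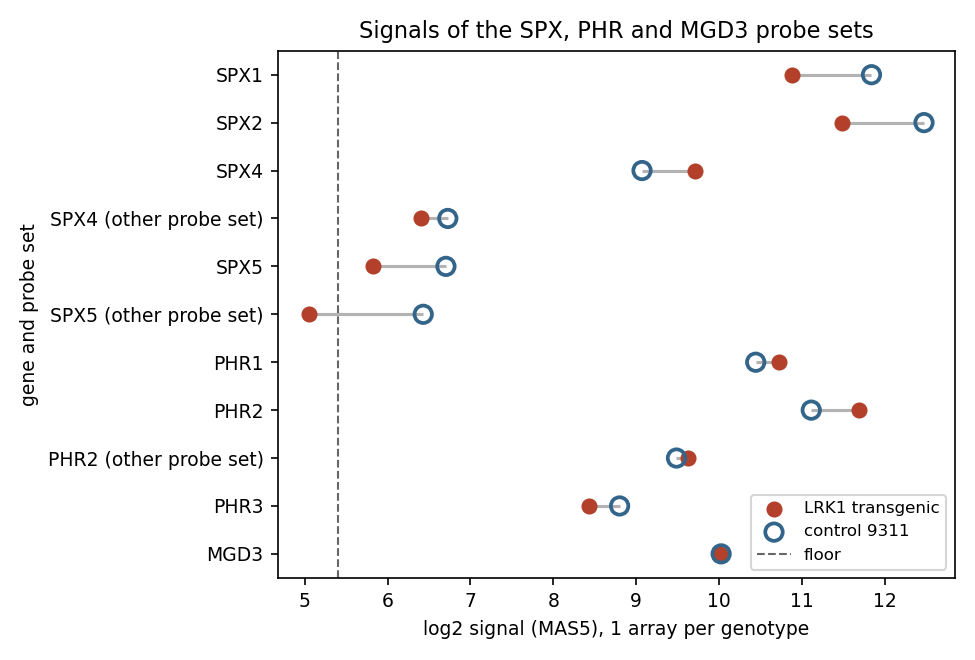
Log2 signal (horizontal axis) of the 11 probe sets of the 8 genes, with 1 filled point for the LRK1 transgenic array and 1 open ring for the control 9311 array, and the floor of 5.40 as a dashed line. The transgenic point lies left of the control ring for SPX1, SPX2, SPX5 and PHR3, right of it for PHR1, PHR2 and the listed SPX4 probe set, and on it for MGD3.

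SPX1 (LOC4341465), an inhibitor of PHR2, had a log2 signal of 10.89 on the transgenic array, against 11.84 on the control array. These are linear signals of 1891 and 3661, and the log2 ratio was -0.95. Its signal was thus 1.94-fold lower on the transgenic array, just inside the 2-fold limit. Of 4932 probe sets whose mean signal lay within 1 log2 unit of it, 9.67% had a ratio as low or lower.

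SPX2 (LOC4328654), which acts alongside SPX1, had a log2 signal of 11.48 in transgenic leaves, against 12.47 in control leaves. Its log2 ratio of -0.99 was the lowest of the 8 listed probe sets, a signal 1.98-fold lower, and 9.82% of the 3809 probe sets of similar signal had a ratio as low. SPX1 and SPX2 each rest on 1 probe set. Neither has a second reading among the probe sets assigned to a single gene, and probe sets annotated to several genes were not examined.

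SPX5 (LOC4333078), a close relative of SPX3 and likewise a repressor of PHR2 activity, gave much weaker readings, 5.83 on the transgenic array and 6.70 on the control array. Its log2 ratio was -0.88, or 1.84-fold lower. Its listed probe set has the ending _x_at, which marks probes that can bind other transcripts. The gene's other probe set, without that ending, read 5.05 in transgenic leaves, below the floor, and 6.43 in control leaves. That probe set was called above the floor on the control array only, as 1.08% of all probe sets were, which puts transgenic leaves at least 2.05-fold lower. Both SPX5 probe sets lie near the floor, where signals are noisy.

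SPX4 (LOC4334647), which holds PHR2 in the cytoplasm, ran the other way, with a log2 signal of 9.71 in transgenic leaves and 9.07 in control leaves. Its log2 ratio was 0.64. The second SPX4 probe set read 6.40 in transgenic leaves and 6.73 in control leaves, a log2 ratio of -0.32. The direction of SPX4 was therefore not the same on its 2 probe sets, of which the brighter also ends in _x_at.

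**Figure D2:**
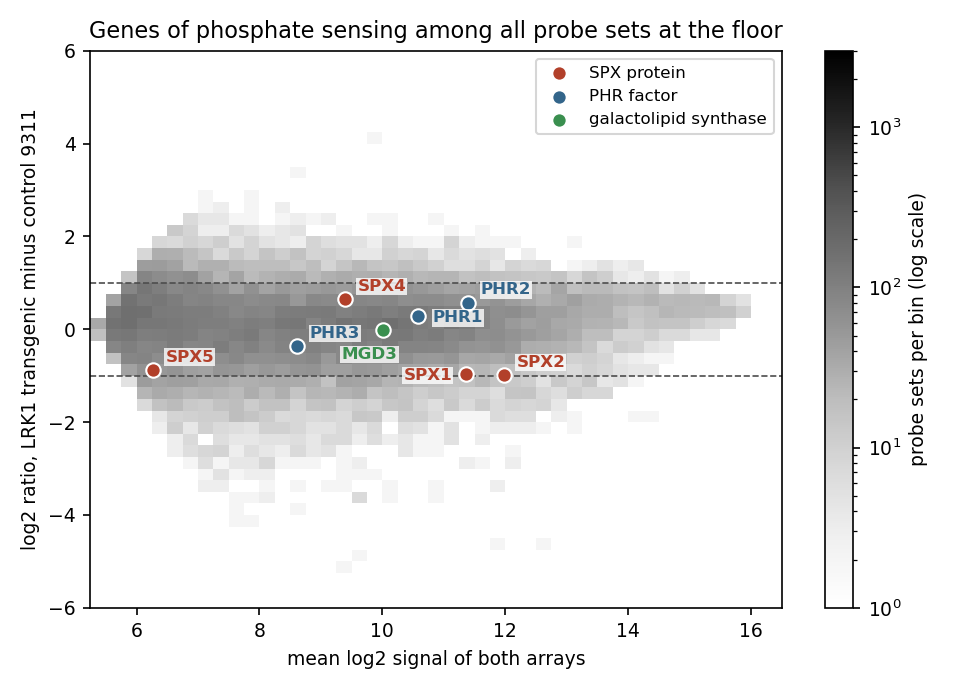
Log2 ratio, LRK1 transgenic minus control 9311 (vertical axis), against the mean log2 signal of both arrays (horizontal axis) for the 24426 probe sets at the floor on both arrays, shaded by the number of probe sets per bin on a log scale, with the 8 genes as coloured points. SPX1 (-0.95), SPX2 (-0.99) and SPX5 (-0.88) sit just above the dashed line of a 2-fold lower signal, and the other 5 genes lie between -0.36 and 0.64.

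The PHR genes had log2 ratios of -0.36 to 0.57 as deposited. PHR2, the main activator of phosphate starvation genes in rice, read 11.68 on the transgenic array and 11.11 on the control array, a log2 ratio of 0.57. Its other probe set read 9.62 in transgenic leaves and 9.49 in control leaves, a ratio of 0.14 with the same sign. PHR1 (LOC4332726), a factor with overlapping function, read 10.72 in transgenic leaves and 10.44 in control leaves, a ratio of 0.28. PHR3 (LOC4328249), the other factor of this family on the list, had a ratio of -0.36, with 8.44 in transgenic leaves and 8.80 in control leaves. Ratios at or above that of PHR2 were found in 20.1% of probe sets of similar signal, and ratios at or below that of PHR3 in 32.2%.

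MGD3 (LOC4331045) makes monogalactosyldiacylglycerol, a galactolipid. It had log2 signals of 10.01 on the transgenic array and 10.02 on the control array, a ratio of -0.02, or 1029 and 1041 on the linear scale.

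Without replicate arrays, repeated readings of a gene come only from its other probe sets, which share the RNA and its labelling and thus leave out variation between plants. In 1951 genes with at least 2 probe sets at the floor on both arrays, the log2 ratios of the 2 brightest differed by a median of 0.32 and an SD of 0.68, with percentile 90 of the difference at 1.07. The readings of SPX4 differed by 0.97, a gap reached in 12.9% of these genes. Those of SPX5 differed by 0.50 and those of PHR2 by 0.44, gaps reached in 33.9% and 40.1%. The second SPX5 probe set was below the floor in transgenic leaves, so SPX5 itself is not among the 1951 genes.

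**Figure D3:**
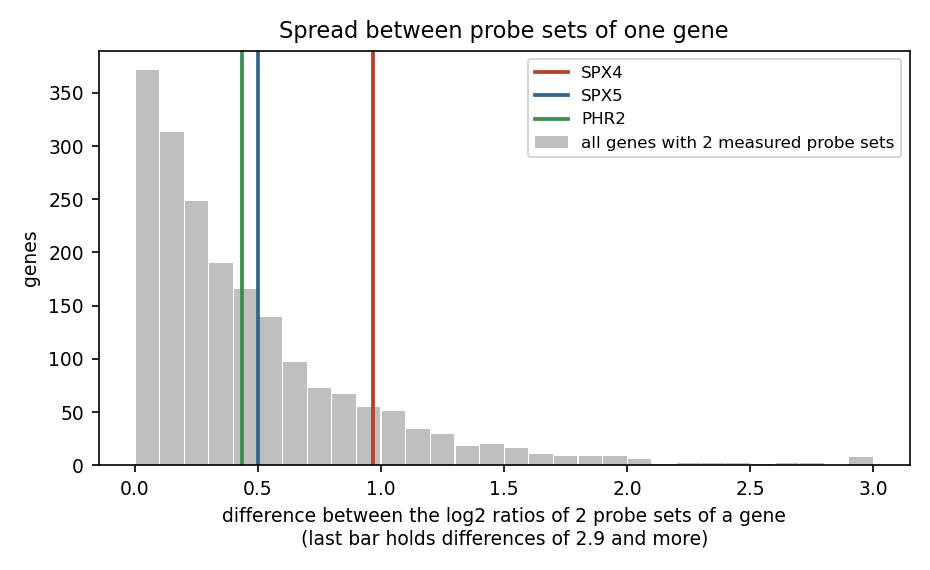
Number of genes (vertical axis) by the difference between the log2 ratios of their 2 brightest probe sets at the floor on both arrays (horizontal axis), over 1951 genes, with lines at the differences for SPX4 (0.97), SPX5 (0.50) and PHR2 (0.44). The SPX4 line lies toward the tail, and the other lines lie among the more common differences. SPX5 is not among the 1951 genes, because its second probe set was below the floor on the transgenic array.

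Differences between the ratios of 2 genes do not depend on a constant shift between the arrays. The listed probe set of SPX4 stood 1.60 log2 units above SPX1, 1.63 above SPX2 and 1.52 above SPX5, gaps that 3.33%, 3.18% and 3.95% of the 1951 same-gene pairs reached. Against the other SPX4 probe set the gaps shrank to 0.63, 0.67 and 0.55, which 24.7%, 23.5% and 29.4% of pairs reached. Same-gene pairs leave out differences between genes, so these shares do not tell how common such gaps are between 2 genes. Over all probe sets at the floor on both arrays, the log2 ratio had an SD of 0.85. Of the 8 listed ratios, SPX4 had the highest, and SPX1, SPX2 and SPX5 the lowest. PHR2 stood 1.53 above SPX1 and 1.56 above SPX2. As deposited and on the listed probe sets, SPX1, SPX2 and SPX5 were at most 0.11 apart. The other SPX5 probe set, below the floor in transgenic leaves, lay 0.42 below SPX1 and 0.39 below SPX2.

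Because SPX1 and SPX2 lay so near the 2-fold limit, their calls turned on the scaling between the arrays. The 63 probe sets of the bacterial control RNAs read with a median 0.34 higher on the transgenic array (SD 0.22 across probe sets). Centring on them takes that amount off every ratio. After it, SPX1 (-1.29), SPX2 (-1.33) and SPX5 (-1.21) were all called lower, as were 16.4% of probe sets at the floor on both arrays under that scaling, PHR1 turned to -0.055, and SPX4 (0.30) and PHR2 (0.24) stayed positive. Loess scaling also called SPX1 (-1.001), SPX2 (-1.07) and SPX5 (-1.08) lower, with 10.7% of probe sets. Centring on the median ratio called SPX1 (-1.03) and SPX2 (-1.07) lower, with 11.2% of probe sets, and quantile normalization called SPX5 (-1.07) lower, with 9.57%. MGD3 turned to 0.034 after quantile normalization. SPX1, SPX2, SPX5 and PHR3 were negative, and the listed probe sets of SPX4 and PHR2 positive, as deposited and under these 4 scalings.

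**Figure D4:**
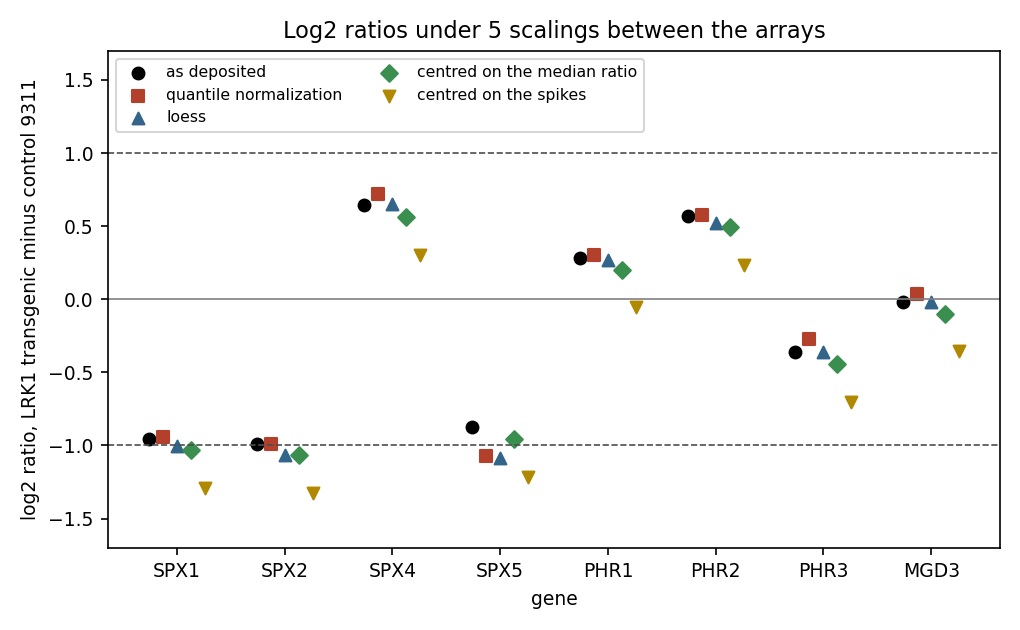
Log2 ratio, LRK1 transgenic minus control 9311 (vertical axis), of the 8 genes as deposited and under 4 other scalings between the arrays, 1 marker shape each, with dashed lines at the 2-fold limits. SPX1, SPX2 and SPX5 lie between -1.33 and -0.88 under the 5 scalings, and the other genes stay inside the limits.

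Other genes of the phosphate pathway were taken from a list of 56 names by role, which holds no phosphatase or ribonuclease genes. Of these, 34 were found in the gene table, 22 had a probe set, and 15 reached the floor on both arrays on their brightest probe set. Coverage was uneven, since 7 of the 15 were transport genes and 6 inositol phosphate kinases. The gene table held 0 of 8 names of turnover and trafficking and 1 of 5 of MYB factors. The counts and medians below therefore do not stand for the whole pathway. Of the 15, 3 passed the 2-fold rule upward in transgenic leaves and 2 downward, against 6.82% and 11.1% of the 13526 genes at the floor on both arrays. After spike centring 3 passed it in each direction, where 2.96% of genes at the floor on both arrays were higher and 18.7% lower. The median log2 ratio of the 15 was 0.23, beside 0.02 over those genes, and it was -0.057 over the 14 still at the floor after spike centring.

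The SPX gene SPX3 (LOC4348535), a partner of SPX5, was below the floor on both arrays, at 5.10 in transgenic leaves and 4.27 in control leaves, and has no call. NIGT1 (LOC4329184), a nitrate-responsive transcriptional repressor, was 2.26-fold lower, with log2 signals of 6.99 in transgenic leaves and 8.17 in control leaves.

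Among phosphate transport genes, 11 had a probe set, 7 reached the floor on both arrays, 2 were higher and 0 lower. PHO1-2 (LOC4331090), of phosphate loading into the xylem, read 8.45 in transgenic leaves and 6.30 in control leaves. PHT1-1 (LOC4331635), a plasma membrane phosphate transporter, read 12.18 on the transgenic array and 10.76 on the control array, a log2 ratio of 1.42. Its other probe set disagreed, with 10.84 on the transgenic array and 11.09 on the control array, a log2 ratio of -0.25. The other transport genes at the floor on both arrays were within 2-fold, from -0.30 (PHT1-8) to 0.56 (PHT1-4). In transgenic leaves PHO1-2 and PHT1-1 were higher on their brightest probe sets. SPX1, SPX2 and SPX5 were lower there but not called as deposited. Whether the transporter and SPX signals are linked was not tested.

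Enzymes that phosphorylate inositol phosphates, from which the ligands of SPX proteins are made, differed among themselves. Of 7 kinase genes with a probe set, 6 reached the floor on both arrays, 1 was higher and 1 lower. ITPK3 (LOC4333967) read 11.05 in transgenic leaves and 9.21 in control leaves, 3.59-fold higher, and its weaker probe set moved the same way (7.54 and 5.17 on those arrays). IPK2 (LOC4329509), an inositol polyphosphate kinase, read 6.05 in transgenic leaves and 8.48 in control leaves, 5.40-fold lower. That reading rests on 1 probe set, whose signal in transgenic leaves was near the floor. The other 4, ITPK2 (0.81), ITPK5 (0.75), ITPK1 (-0.01) and IPK1 (-0.77), were within 2-fold.

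Beside MGD3, the galactolipid synthase gene MGD1 (LOC4347099), of the chloroplast, had log2 signals of 11.91 in transgenic leaves and 11.68 in control leaves, a ratio of 0.23. MGD2 (LOC4345212) read 3.26 on the transgenic array, below the floor, and 6.03 on the control array, above it by less than the 2-fold that a call needs.

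**Figure D5:**
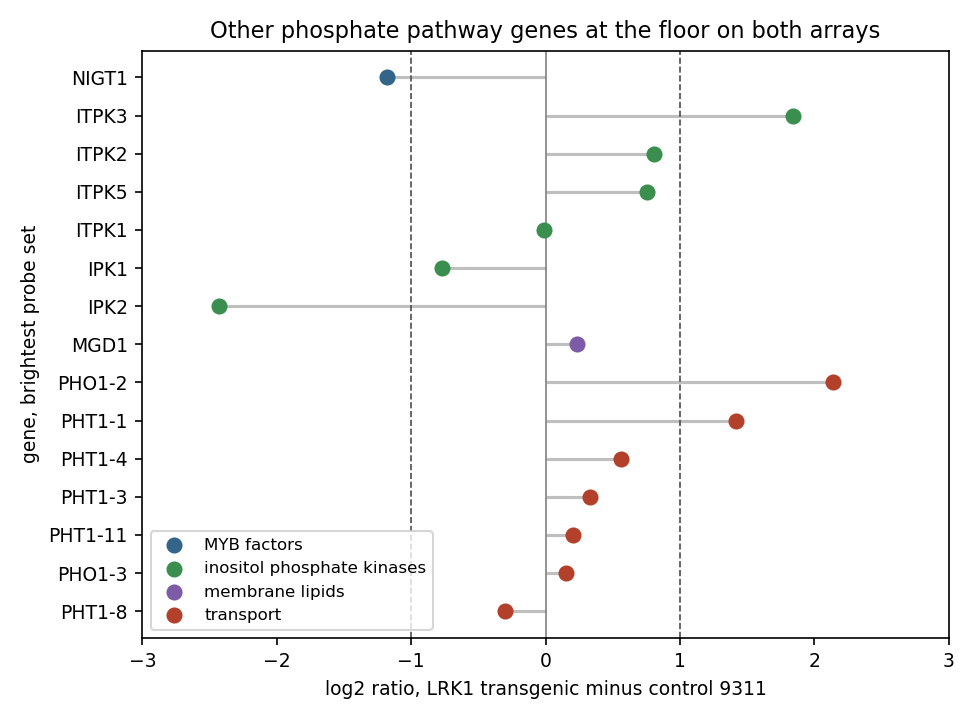
Log2 ratio, LRK1 transgenic minus control 9311 (horizontal axis), of the 15 other phosphate pathway genes at the floor on both arrays, by role, with dashed lines at the 2-fold limits. PHO1-2, ITPK3 and PHT1-1 lie beyond the upper limit, and IPK2 and NIGT1 beyond the lower one.

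Leaf identity and RNA quality were read from the same arrays. The 4 measured leaf markers RBCS, RCA, CAB2R and GLO1 had log2 signals from 14.32 to 16.24 on the transgenic array and 12.92 to 15.78 on the control array, and each was higher on the transgenic array, by 0.46 to 1.40. Their linear signals summed to 225178 and 153681 on those arrays. The 4 root markers summed to 1622 on the transgenic array and 1474 on the control array. Most of it came from LSI1 (10.50 and 10.40), a silicon transporter gene of roots. LSI2, its root partner, was below the floor on both arrays, while IRT1 (6.91 and 6.28) and PHT1-11 (5.64 and 5.44) reached it on both. PHT1-11 did so narrowly and only on the brightest of its 4 probe sets, the others being below the floor on both arrays. The 6 panicle and seed markers summed to 1286 on the transgenic array and 995 on the control array. GLUA1, PROLM25 and OSC6 were below the floor on each array, while MADS16, MADS2 and MADS4 reached it on both. MADS16 was the brightest of the 6, at 10.07 on the transgenic array and 9.49 on the control array. MADS2 passed the 2-fold rule downward, with a log2 ratio of -1.26, while MADS16 (0.58) and MADS4 (0.73) were higher within 2-fold. The 3'/5' signal ratio, which rises as RNA breaks down, was higher on the control array in 5 of 5 housekeeping pairs at the floor, at 6.95 on the transgenic array and 9.45 on the control array for an actin pair and 2.16 and 3.87 for GAPDH. The gap was small for the second actin pair, at 16.2 and 16.4 on those arrays, and for ubiquitin, at 0.78 and 0.83. The part of leaf composition and RNA quality in the SPX and PHR ratios was not tested.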

How the data were processed

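Each array's deposited file column holds a log2 signal for every probe set. Per the submitters' processing notes the authors used MAS5, whose version and scaling target no source used here gives. The log2 scale was inferred from the range of the values, 0 to 16.24. Per the labels' protocols, RNA was labelled with a 3' IVT kit, which weights the 3' end of transcripts.

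Probe sets were assigned to genes through the platform annotation, and genes were named through the gene table of Oryza sativa Japonica, although the plants are an indica rice. 22436 probe sets had 1 gene, and all 8 members were matched. Probe sets annotated to several genes were not assigned to any gene. The 123 array controls were left out. Pathway and marker genes are represented by their brightest probe set. The names PAP2 and PAP3 were left out, because the table does not tell a phosphatase from other proteins of those names. The plan also named other phosphatase and ribonuclease genes and further genes of membrane lipids, which the pathway list used here does not hold. Sequences are not shown.

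Ratios are the log2 signal of the transgenic array minus that of the control array. The call rule was checked on simulated data. Alternatives were quantile normalization, loess (statsmodels 0.14.6, span 0.4), centring on the median ratio or on the spikes, the floor at percentile 25 or 75, a 1.5-fold rule, log2(signal + 16) and other probe sets. Other genes named are those past the 2-fold rule, up to 4 per role and direction, or the brightest of a role, and further names (SPX3's, MGD2's and the within-limit kinases' among them) were chosen after their values were seen. Members and lists were chosen with earlier results of these data known. The number of arrays limits the precision.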

Additional observations from a re-analysis of the deposited data

How the results depend on the processing

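No paired analysis was possible because there was 1 array per genotype. With the size rule as the threshold, 48 of 62 alternative values of the 8 members kept the sign and their side of the rule. The 48 include the settings with the floor at percentile 25 or 75. Those settings leave every ratio as deposited, so they could change neither sign nor side and add no evidence of stability. The count of members called lower, 0 as deposited, was 1 with quantile scaling, 3 with loess, 2 with median centring, 3 with spike centring and 3 at the 1.5-fold rule, where 1 member was higher. The calls gained were SPX1 (-1.001 with loess, -1.03 median-centred, -1.29 spike-centred), SPX2 (-1.07, -1.07 and -1.33 under the same settings) and SPX5 (-1.07 with quantile normalization, -1.08 with loess, -1.21 spike-centred). The other SPX5 probe set (-1.38) was above the floor on the control array only, and the median of both SPX5 probe sets was -1.13, past the 2-fold size but with no call of its own. Signs changed for SPX4 on its other probe set (-0.32), MGD3 with quantile scaling (0.034) and PHR1 with spike centring (-0.055), none of them called. In the pathway list, 0 genes were lower with the floor at percentile 75, 5 were higher at the 1.5-fold rule, and the median was -0.057 with spike centring. Over all probe sets, 2042 were higher and 2430 lower as deposited, 877 and 3858 spike-centred, 5774 and 4577 for a floor at percentile 25, 779 and 1062 with it at percentile 75, and 5394 and 4692 at the 1.5-fold rule; higher calls numbered 1743 and lower 2634 with loess, and 1645 and 2722 median-centred. Centring takes a constant off every ratio. Among the 8 members it added lower calls, and over all probe sets higher calls also became fewer. The cause of the other changes was not tested. Signals near the floor, as for SPX5, limit what these arrays can show.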

Other observations

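Several phosphate transport genes had signals near or below the floor, and their ratios are given as values only. PHT1-6 (LOC4346342) had a log2 signal of 5.48 in transgenic leaves, just above the floor, and 2.19 in control leaves. Of the 3 probe sets of PHT1-3 (LOC4348740), the brightest read 6.32 in transgenic leaves and 5.99 in control leaves, while the next read 6.07 in transgenic leaves and 2.62 in control leaves. PHT1-7 (LOC4331542) was below the floor on both arrays, at 2.65 and 4.88 in transgenic and control leaves. PHT1-8 (LOC4348741) had clear signals on both arrays, 9.60 in transgenic leaves and 9.90 in control leaves, a log2 ratio of -0.30, and its second probe set gave -0.47.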
